A study of Homo sapiens with 23 samples.

Results

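The collagen cross-linking and modifying enzymes followed here are 10 genes, called members below: LOX, LOXL1, LOXL2, LOXL3, LOXL4, PLOD1, PLOD2, P4HA1, P4HA2 and SERPINH1, 9 of which encode enzymes that modify or cross-link collagen and 1, SERPINH1, a chaperone that folds it. They were chosen by name, as the rows of the deposited table whose symbol equals a member, and all 10 were found among 35438 genes. Collagen chains are hydroxylated in the endoplasmic reticulum. Prolyl hydroxylases such as those built on P4HA1 and P4HA2 stabilise the triple helix, lysyl hydroxylases (PLOD1, PLOD2) prepare lysines for glycosylation and cross-links, and SERPINH1 holds the folded helix until it leaves. Outside the cell, lysyl oxidases (the LOX family) oxidise lysines of collagen and elastin, and the products condense into the covalent cross-links that stiffen the matrix of skin and of tumors.

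Poly(A) RNA came from WM989 A6-G3, a human melanoma line bottlenecked to a single cell, and from 7 clones, each expanded from 1 colony of that line that had grown out under drug. The untreated cells grew without drug. Clones 7, 8 and 9 had grown out under vemurafenib, an inhibitor of mutant BRAF, and stayed in 1 µM of it. Clones 10, 11, 12 and 13 had grown out under dabrafenib, another BRAF inhibitor, with trametinib, a MEK inhibitor, and stayed in 250 nM and 2.5 nM. The labels give the genotype of every sample as WT and explain it no further. Each group had 3 libraries, except clone 11 with 2. Resistance and presence of the drug cannot be told apart in this design, nor can drug arm and drug. The labels name biological replicates but not whether these were separate cultures, and p-values therefore measure only the spread between these libraries, which may be technical.

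Levels are TPM (each transcript's share of its library, corrected for length) scaled between libraries, so genes can be compared with each other. Sequencing depth is unknown, because TPM does not keep it. Clone 10 replicate 1 stood apart, with 14415 genes above 0 against 18671 to 24039 in the other libraries. For clone 10, the fold changes of LOXL1 and LOXL3 and the count of members called are given with and without it. All other values of clone 10, and the correlations between libraries, include it. Of the melanocyte markers, 6 of 6 fell in the clones, their summed level going from between 11951 and 12317 TPM in untreated libraries to between 20.9 and 465 TPM in clone libraries. Fibroblast markers moved the other way: 5 of 5 tested rose, 3 of which (FAP, PDGFRA and PDGFRB) had met the filter through the clones only, and the sum of the 6 genes went from between 53.1 and 63.8 TPM to between 287 and 985 TPM, while THY1, a defining surface marker of fibroblasts, stayed under 1 TPM in every library. In bulk RNA, fewer cells of a type and less RNA per cell cannot be told apart, and the part of any such cells in the results below was not tested. The keratinocyte genes KRT5 and KRT1, the endothelial genes CDH5 and TEK and the T cell gene CD3E were under 1 TPM in every library. Other genes of these lists had a higher mean in every clone than in untreated cells. The endothelial gene VWF averaged 0.261 TPM untreated, 0.443 TPM in clone 11 (its lowest) and 2.37 TPM in clone 7 (its highest). PECAM1, also endothelial, averaged 0.284 TPM untreated, 0.365 TPM in clone 10 and 1.85 TPM in clone 13. The keratinocyte gene KRT10 averaged 8.70 TPM untreated, 9.19 TPM in clone 11 and 16.3 TPM in clone 9. KRT14, another keratinocyte gene, was at 0 in untreated libraries and at 1.27 to 2.46 TPM in clone 11, and the leukocyte gene PTPRC was at 1.15 to 1.36 TPM in untreated libraries, 2.83 to 4.88 TPM in clone 8 and up to 4.97 TPM in clone 10. The summed levels in untreated and clone libraries were 7.88 to 9.54 and 9.62 to 18.0 TPM for 4 keratinocyte genes and 0.435 to 0.633 and 1.11 to 5.15 TPM for 4 endothelial genes. CD68, a gene used as a macrophage marker, was at 157 to 162 TPM in untreated libraries already. It did not rise in clone 11 (140 to 168 TPM), and the means of the other clones were 235 to 610 TPM.

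Transcripts of 8 of the 10 members were more abundant in the resistant clones than in the parent. LOXL2 rose most, from about 3 TPM to clone means of 195 to 827 TPM, followed by PLOD2, P4HA2 and SERPINH1, while LOX and LOXL4 stayed under 1 TPM in all 23 libraries. A gene was called when its adjusted p (limma, Benjamini-Hochberg over the 15657 genes with at least 1 TPM in at least 2 libraries) was under 0.05 and its log2 fold change at least 1 in size. Of the 10 members 8 were tested, and 8 were called higher in the mean of the 7 clones, beside 10.9% of the genes tested. LOXL1 entered the test through clone libraries alone and so had to differ. The other 7 were above 2.9 TPM in every untreated library, and in each of these 7 every one of the 20 clone libraries lay above every untreated library, beside 14.5% of genes tested. The median log2 fold change of the 8 was 2.12, and that of all genes tested was -0.01 (0.14 with the values as deposited, before scaling between libraries). LOXL2, PLOD1, PLOD2, P4HA2 and SERPINH1 were called higher in each of the 7 clones, as were 4.87% of genes tested.

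**Figure D1:**
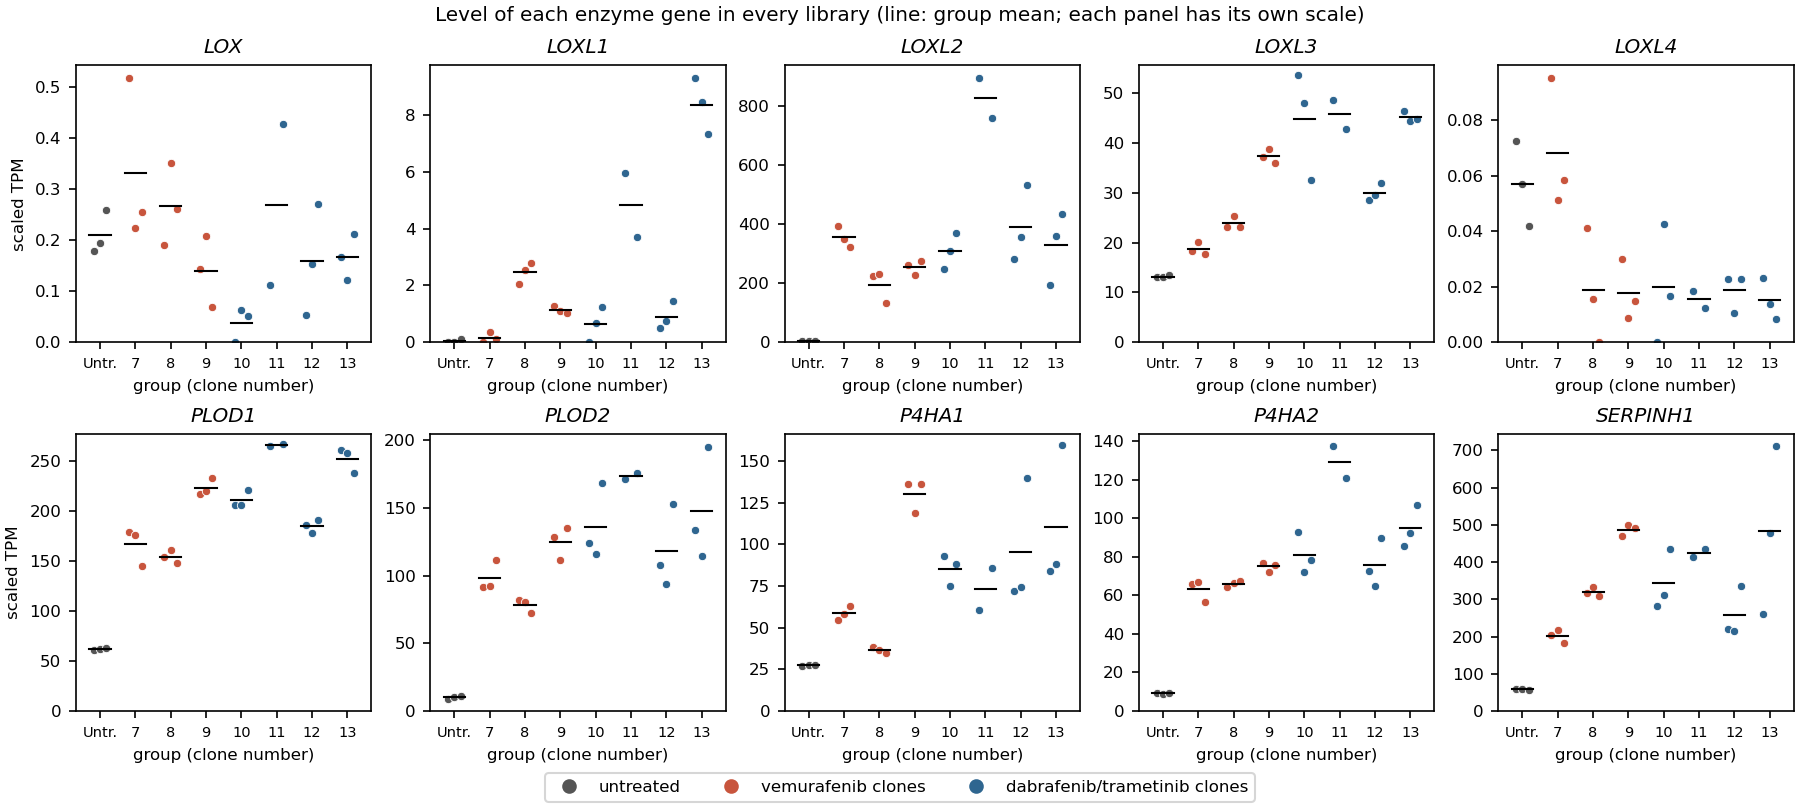
Scaled TPM (y axis, linear, a separate scale per panel) of the 10 members in each of the 23 libraries (points), by group (x axis, untreated cells and clones 7 to 13), with the group mean as a line. The 20 clone libraries lie above the 3 untreated libraries for LOXL2, LOXL3, PLOD1, PLOD2, P4HA1, P4HA2 and SERPINH1, and LOX and LOXL4 stay under 1 TPM.

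Counted by clone, members called higher numbered 6 of 8 in clone 7 (11% of genes tested were called higher there), 6 in clone 8 (11%), 8 in clone 9 (11.5%), 7 in clone 10 (11.8%), 8 in clone 11 (11.7%), 7 in clone 12 (11.5%) and 8 in clone 13 (12.3%). By the same limma fit 0 members were called lower in any clone, where the share of genes called lower was 8.54% in clone 7, 9.29% in 8, 8.29% in 9, 10.5% in 10, 9.53% in 11, 8.02% in 12 and 8.35% in 13, and every estimated log2 fold change was above 0. The comparisons of single clones share the 3 untreated libraries. The combinations that missed a call were LOXL1 in clones 7, 10 and 12, LOXL3 in clones 7 and 8, and P4HA1 in clone 8. The count for clone 10 was 7 with and without replicate 1.

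**Figure D2:**
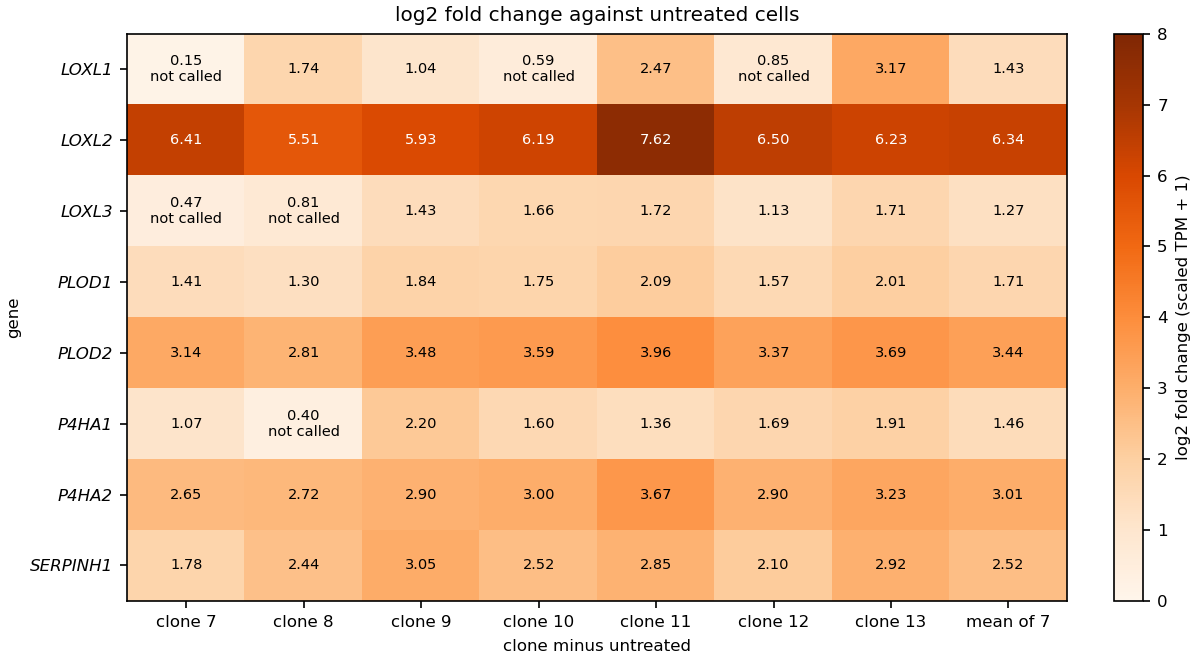
log2 fold change of the 8 tested members (rows) relative to untreated cells, for each clone and for the 7 together (columns), on the scale of log2(scaled TPM + 1), shaded from 0 to 8. LOXL2 is between 5.51 and 7.62 in every column, and cells marked as not called missed the adjusted p or the minimum of 1.

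Within the endoplasmic reticulum, the first step is proline hydroxylation. P4HA1 and P4HA2 encode alternative catalytic subunits of prolyl 4-hydroxylase, which pair with protein disulfide isomerase (P4HB). In untreated cells P4HA1 was the more abundant, at 27.1, 27.4 and 27.9 TPM against 9.15, 9.03 and 9.42 TPM for P4HA2. P4HA2 then rose in every clone (log2 fold change 3.01, SE 0.09, adjusted p = 8.68e-16 for the mean of the 7), to clone means between 63.2 ± 5.8 TPM (SD, n = 3) in clone 7 and 129 ± 11.5 TPM (SD, n = 2) in clone 11. P4HA1 rose less and less evenly (log2 fold change 1.46, SE 0.17, adjusted p = 6.02e-07). For the vemurafenib arm the libraries of clone 7 read 54.7, 58.5 and 63.2 TPM, those of clone 8 read 38.5, 36.4 and 34.6, and those of clone 9 read 136, 119 and 136. For the other arm clone 10 read 93, 75 and 88.3 TPM, clone 11 read 60.4 and 86, clone 12 read 72.1, 74.4 and 140.0, and clone 13 read 83.8, 88.2 and 159. Clone 8 was the lowest and clone 9 the highest by mean, and the third libraries of clones 12 and 13 were far above the other libraries of their clones. In clone 8 the 3 libraries lay above the untreated ones, but P4HA1 missed the call (log2 fold change 0.40, 95% interval -0.08 to 0.87, adjusted p = 0.16).

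The balance of the subunits was read as a ratio. The ratio of P4HA2 to P4HA1 TPM was 0.335 ± 0.00455 (SD, n = 3) in untreated cells and between 0.559 and 2.27 in clone libraries, with a median of 1.00. Clone 8 held 1.82 ± 0.142 (SD, n = 3) and clone 9 held 0.577 ± 0.0277, so their libraries did not overlap, and clone 11 spread from 1.41 to 2.27. The ratio itself was not tested in a model. P4HA3, the remaining catalytic subunit, stayed near 0.558 TPM in untreated cells and 1.02 TPM in the mean of the clones (log2 fold change 0.36), and the partner P4HB was under the fold minimum in the mean of the clones at 0.77 (adjusted p = 1.74e-07) and called higher in clone 13 alone (1.16). P4HA3, P4HB and PLOD3 below were singled out as paralogs or partners of members after their values were seen.

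Both lysyl hydroxylases among the members rose. PLOD1, which hydroxylates lysines in the helix, went from 61.2, 61.7 and 62.9 TPM in untreated libraries to clone means between 154 ± 6.62 TPM (SD, n = 3) in clone 8 and 266 ± 1.04 TPM (SD, n = 2) in clone 11 (log2 fold change 1.71, SE 0.06, adjusted p = 2.36e-14). PLOD2, which hydroxylates lysines of the telopeptides and so sets the type of cross-link, went from 9.09, 10.5 and 11.3 TPM to clone means between 78.1 ± 5.09 TPM (SD, n = 3) in clone 8 and 174 ± 3.02 TPM (SD, n = 2) in clone 11 (log2 fold change 3.44, SE 0.14, adjusted p = 1.21e-13). The rise was 12.2-fold for PLOD2 and 3.37-fold for PLOD1 as ratios of mean TPM. PLOD2 held 0.149 to 0.179 of the PLOD1 level in untreated libraries and 0.444 to 0.819 in clone libraries, without overlap. PLOD3, the family member that also glycosylates, did not reach the fold minimum (log2 fold change -0.46, adjusted p = 0.000202), with 263 TPM in untreated cells and 193 TPM in the mean of the clones. PLOD3 was the most abundant of the 3 lysyl hydroxylase transcripts in untreated cells, while the mean of PLOD1 was above that of PLOD3 in 5 clones, narrowly in clones 7 (167 against 165 TPM) and 8 (154 against 151 TPM) and by more in clones 10, 11 and 13 (211, 266 and 253 against 178, 183 and 219 TPM). These differences were not tested.

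**Figure D3:**
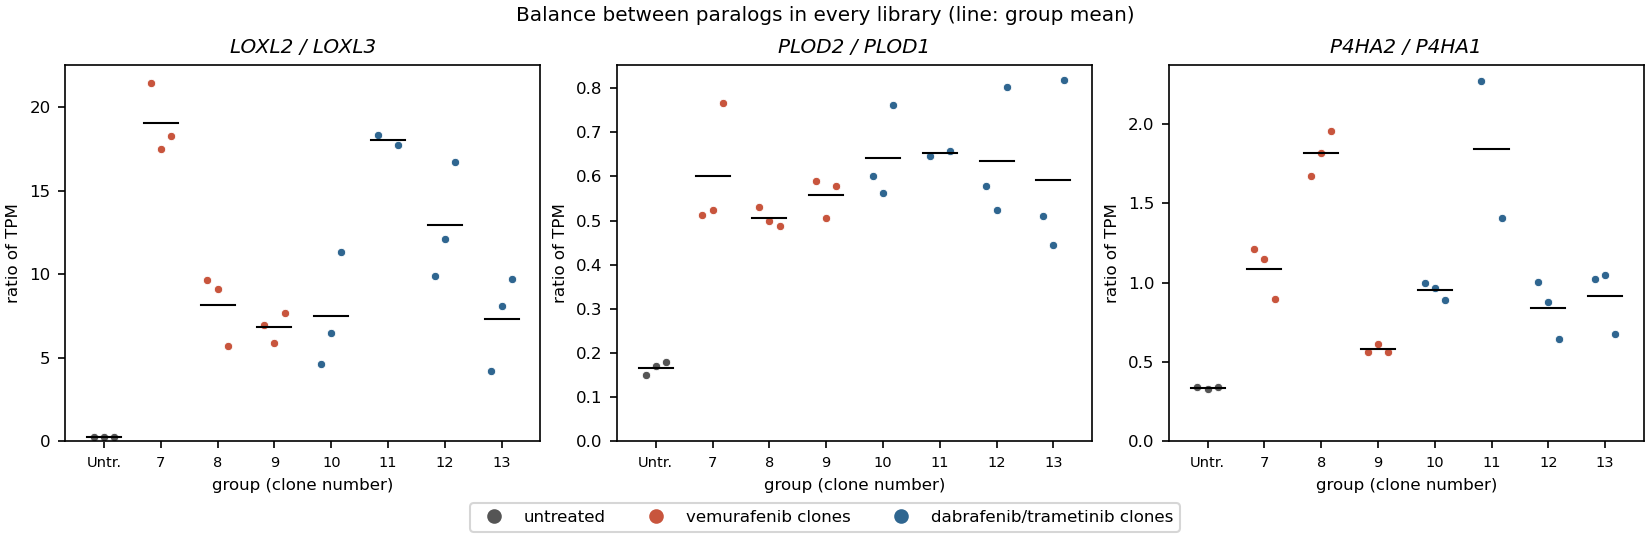
Ratios of TPM within a library (y axis, linear from 0) for LOXL2 to LOXL3, PLOD2 to PLOD1 and P4HA2 to P4HA1, by group (x axis), with 1 point per library and the group mean as a line. The 3 untreated libraries lie below the 20 clone libraries in each panel, and clone 9 has the lowest P4HA2 to P4HA1 ratio among the clones.

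SERPINH1, the collagen chaperone of the endoplasmic reticulum, went from 58.2, 58.4 and 57 TPM in untreated libraries to higher levels in all clones. Under vemurafenib, clone 7 read 204, 219 and 181 TPM, clone 8 read 316, 332 and 309, and clone 9 read 471, 498 and 491. Under dabrafenib and trametinib, clone 10 read 283, 312 and 435 TPM, clone 11 read 413 and 435, clone 12 read 219, 216 and 335, and clone 13 read 261, 477 and 711. The clones lay above untreated cells without overlap (log2 fold change 2.52, SE 0.19, adjusted p = 8e-10). Clone 9 was tight and high, whereas the 3 libraries of clone 13 spanned the range of most other clones.

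The promoters of P4HA1, PLOD2 and P4HA2 are shown because the first pair were, with SERPINH1, the members that moved most closely with hypoxia genes within clones over 20 libraries (described below), and P4HA2 is the paralog to compare. Without the third libraries of clones 12 and 13, PLOD2 (r = 0.38) lay below PLOD1 (0.44) and LOXL2 (0.43) in this. Each is the 250 bases before the start in RefSeq on GRCh38.p14, on the minus strand, at chr10:73096867-73097116 for P4HA1, chr3:146161185-146161434 for PLOD2 and chr5:132227092-132227341 for P4HA2. Capitals mark ACGTG on either strand, the core of the element bound by hypoxia-inducible factors.
P4HA1: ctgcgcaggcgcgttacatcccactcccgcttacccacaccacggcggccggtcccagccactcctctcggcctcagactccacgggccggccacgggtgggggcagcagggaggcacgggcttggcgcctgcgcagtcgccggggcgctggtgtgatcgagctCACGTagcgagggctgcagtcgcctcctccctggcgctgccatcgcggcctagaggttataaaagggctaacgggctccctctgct
PLOD2: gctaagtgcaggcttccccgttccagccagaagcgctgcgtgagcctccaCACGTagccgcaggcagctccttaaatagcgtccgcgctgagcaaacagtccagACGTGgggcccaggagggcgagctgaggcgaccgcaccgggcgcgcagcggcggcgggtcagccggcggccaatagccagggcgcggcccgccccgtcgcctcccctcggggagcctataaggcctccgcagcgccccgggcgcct
P4HA2: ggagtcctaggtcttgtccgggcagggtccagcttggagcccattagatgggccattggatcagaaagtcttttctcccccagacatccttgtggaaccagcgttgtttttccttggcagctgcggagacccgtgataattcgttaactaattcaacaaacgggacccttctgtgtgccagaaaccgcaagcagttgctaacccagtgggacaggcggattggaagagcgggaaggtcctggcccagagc
P4HA1 held 1 match, starting at position -86, PLOD2 held 2, at -200 and -146, and P4HA2 held none in these letters and this window, where -1 is the last base before the start. The RefSeq start of PLOD2, unlike the others, was not found in a transcript sequence of the annotation, so its positions rest on the RefSeq table alone. Of 34943 promoter windows of the same length in the table, 18.5% held at least 1 match. LOX, which was under 1 TPM, held 4 in its most upstream window. SERPINH1 held 1 in the second of its windows, at -184, and none in the first, and LOXL1, LOXL3, LOXL4 and PLOD1 had none in theirs. The AP-1 motif TGANTCA, searched on both strands and present in 6.59% of windows, was in none of the windows, which covered 9 of the 10 members and not LOXL2. Of the other motifs searched, GGAATG (the TEAD motif, in 11.9% of windows) had 2 matches in LOXL3, at -118 and -100, and CCAAT (in 32% of windows) had matches in LOX, PLOD2, P4HA2 and SERPINH1. A match is a description of the letters and not evidence of binding.

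Outside the cell, the lysyl oxidase family changed mainly in LOXL2, whose product oxidises lysines of fibrillar and basement membrane collagen. It stood at 2.93, 3.21 and 3.44 TPM in untreated libraries. Among vemurafenib clones, clone 7 read 394, 351 and 322 TPM, clone 8 read 224, 230.4 and 132, and clone 9 read 260.1, 228 and 276. Among dabrafenib/trametinib clones, clone 10 read 248, 310.1 and 371 TPM, clone 11 read 894 and 759, clone 12 read 283, 358 and 534, and clone 13 read 194, 361 and 436. The lowest clone library, replicate 3 of clone 8, was still far above every untreated library, and the 2 libraries of clone 11 were above all others. The log2 fold change for the mean of the clones was 6.34 (95% interval 5.92 to 6.77, adjusted p = 2.15e-15), the 19th largest rise of 15657 genes. By mean level LOXL2 went from place 11057 of these genes in untreated cells to place 308 in the clones.

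LOXL3, which also oxidises collagen lysines, was the most abundant family member in untreated cells at 13.1, 13.1 and 13.4 TPM. It rose in 5 clones, 9 to 13 (log2 fold change 1.27, SE 0.10, adjusted p = 1.11e-09 for the mean of the 7). Clone 7, at 18.4, 20.1 and 17.6 TPM, and clone 8, at 23.2, 25.3 and 23.1 TPM, lay above untreated cells without overlap and passed the adjusted p but not the fold minimum (log2 fold changes 0.47 and 0.81). The highest levels were in clones 10, 11 and 13, with means of 44.8, 45.8 and 45.3 TPM. In clone 10 the fold change was 1.66 with replicate 1 and 1.53 without it.

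With these changes LOXL2 replaced LOXL3 as the leading transcript of the family. LOXL2 made up 19.1 ± 0.99% (SD, n = 3) of the summed TPM of the 5 family members in untreated cells and between 77.6% and 95.4% in clone libraries, while LOXL3 went from 79.1 ± 1.36% (SD, n = 3) to between 4.45% and 18.6%. The family sum went from between 16.3 and 17.2 TPM to between 158 and 949 TPM. These shares were not tested.

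LOXL1, an oxidase associated with elastic fibres, had the widest range of clone means among the members. It was listed at 0 in 2 untreated libraries and at 0.103 TPM in replicate 3. Clone 13 held 9.3, 8.45 and 7.34 TPM, clone 11 held 5.97 and 3.72 and clone 8 held 2.05, 2.55 and 2.81, all called higher (log2 fold changes 3.17, 2.47 and 1.74). Clone 9 held 1.27, 1.1 and 1.03 TPM and was called at 1.04, a value that fell under the minimum of 1 without its replicate 1 (0.998). Clone 12, at 0.51, 0.751 and 1.44 TPM, and clone 10, at 0, 0.671 and 1.24 TPM, missed the fold minimum with log2 fold changes of 0.85 and 0.59. Clone 10 reached 0.91 without replicate 1, the library with few detected genes. Clone 7, at 0, 0.367 and 0.0996 TPM, overlapped untreated cells (95% interval of the log2 fold change -0.35 to 0.65). With 0.1 added in place of 1 before the logarithm, which weighs low levels more, clones 10 and 12 were called as well (1.89 and 2.87).

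LOX, the founding member of the family, had a median of 0.19 TPM over the 23 libraries and a highest value of 0.517 TPM in clone 7 replicate 1. LOXL4 had a median of 0.0229 TPM and a highest value of 0.0951 TPM, also in clone 7 replicate 1. Both were under the level required for testing in every library, so no fold change is given for them. Untreated and clone libraries overlapped in both genes.

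The 7 clones, which come from 1 parental line, were then compared with each other. An F test on 6 degrees of freedom called 7 of the 8 tested members as differing among the clones with a range of clone means of at least 1 on the log2 scale, beside 25.3% of genes tested. The ranges were 3.03 for LOXL1, 2.11 for LOXL2, 1.81 for P4HA1, 1.27 for SERPINH1, 1.25 for LOXL3, 1.14 for PLOD2 and 1.02 for P4HA2, with adjusted p-values between 5.68e-08 (LOXL1) and 0.00217 (SERPINH1). LOXL1 met the filter only through clones where it was high, so its call was in part fixed by that filter. PLOD1 passed the adjusted p (2.32e-06) with a range of 0.78, under the minimum, and passed the minimum with the values as deposited (1.04). The count of 7 became 4 without clone 7 and 4 without clone 11, so the spread rests in part on these 2 clones.

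Clone 11 had the highest mean of LOXL2, LOXL3, PLOD1, PLOD2 and P4HA2, clone 9 that of P4HA1 and SERPINH1, and clone 13 that of LOXL1. The lowest means were in clone 7 for LOXL1, LOXL3, P4HA2 and SERPINH1 and in clone 8 for LOXL2, PLOD1, PLOD2 and P4HA1. Over the 21 pairs of clones, 30 of 168 combinations of member and pair were called, 17.9% beside 6.16% over all genes tested. LOXL1 gave 11 of these 30, and it met the filter only through clones where it was high, so this share was in part fixed. Clone 11 took part in 14 of the 30 calls and was the higher clone in all 14, and clone 7 took part in 12 and was the lower one in all 12. No share over all genes is given for these directions. Whether clone 11 was higher or clone 7 lower in genes at large was therefore not tested. The pairs share libraries and are not independent.

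LOXL2 was called higher in clone 11 than in each of the other 6 clones, by 1.12 against clone 12 (adjusted p = 0.0111) up to 2.11 against clone 8 (adjusted p = 5.19e-05) on the log2 scale. Over all genes tested, the share called between clone 11 and another clone was 7.84% for clone 7, 7.1% for clone 8, 7.65% for clone 9, 9.11% for clone 10, 7.63% for clone 12 and 6.55% for clone 13. Below clone 11, the order of LOXL2 ran 12, 7, 13, 10, 9 and 8, and none of these neighbours differed past the adjusted p. For P4HA1 the order from the lowest was 8, 7, 11, 10, 12, 13 and 9, again with no neighbouring pair past the adjusted p, while clones 8 and 9 were 1.81 apart (adjusted p = 1.31e-05, with 5.05% of genes called in that pair). SERPINH1 ran 7, 12, 8, 10, 11, 13 and 9, with clone 7 called lower than clones 9, 11 and 13 (4.91% of genes were called between clones 7 and 9 and 4.54% between 7 and 13). LOXL3 ran 7, 8, 12, 9, 10, 13 and 11, with clone 7 called lower than clones 10 (10.8% of genes called), 11 and 13. PLOD2 ran 8, 7, 12, 9, 10, 13 and 11, with 1 called pair, clones 8 and 11 (1.14). P4HA2 ran 7, 8, 9, 12, 10, 13 and 11, where clones 13 and 11 passed the adjusted p (0.0244) at a difference of 0.44 and 1 pair was called, clones 7 and 11 (1.02). PLOD1 ran 8, 7, 12, 10, 9, 13 and 11 with no called pair. LOXL1 ran 7, 10, 12, 9, 8, 11 and 13, where clones 9 and 8 passed the adjusted p (0.0448) at 0.70, and 11 of its 21 pairs were called.

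By drug arm the members were not separated by the test. With the mean of each clone as the unit, 3 vemurafenib against 4 dabrafenib/trametinib clones, limma called 0 of the 8 members, beside 0.0128% of genes tested. All 8 differences were negative, lower in vemurafenib clones, from -0.18 (SERPINH1) to -0.79 (LOXL1) on the log2 scale, and 3 had an unadjusted p under 0.05: LOXL3 at -0.65 (95% interval -1.23 to -0.07), PLOD2 at -0.51 (-0.96 to -0.06) and P4HA2 at -0.45 (-0.89 to -0.00), with limma's adjusted p at 0.308, 0.304 and 0.344. No share over all genes is given for the sign or the unadjusted p. The 8 members correlated positively over the 20 clone libraries (28 of 28 pairs above 0), so these are not 8 separate results. The means of P4HA2 did not overlap between arms, with 63.2 to 75.0 TPM in vemurafenib clones and 75.9 to 129 TPM in the others, and 7.04% of genes tested were lower without overlap in the same direction. The sign of SERPINH1 turned without clone 7 (0.15).

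Libraries of the same clone also differed, and several members did so together. In clone 12, replicate 3 had the highest value of all 8 tested members, and in clone 13, replicate 3 had the highest of 5. Over the 20 clone libraries, the deviations of each library from the mean of its clone had a median Pearson r of 0.26 over the 28 pairs of members, with 19 above 0. The highest were 0.82 between PLOD2 and P4HA1 and between LOXL2 and SERPINH1. LOXL3 and PLOD1 were near 0 (-0.06), and the lowest was -0.35 between LOXL1 and LOXL3. In that pair the widest deviations of both genes were in clone 10. Its replicates 1 and 3 stood at -0.64 and 0.53 for LOXL1 and at 0.28 and -0.41 for LOXL3. Replicate 1 is the library with few detected genes, and no value of r without it is given. These correlations are descriptions over libraries that share clones, and TPM of 1 library share a total.

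A list of 12 hypoxia response genes that holds none of the 10 members was set beside these deviations, since P4HA1, P4HA2, PLOD2 and LOX are known targets of hypoxia-inducible factors. The mean log2 level of the list was 4.47 ± 0.05 (SD, n = 3) in untreated cells and between 5.07 (clone 8) and 5.77 (clone 11) by clone mean. Within clones its deviations had an r of 0.91 with P4HA1, 0.82 with SERPINH1, 0.78 with PLOD2, 0.70 with LOXL2 and 0.55 with P4HA2 over 20 libraries. For PLOD1 (0.14), LOXL1 (0.12) and LOXL3 (-0.19) it was near 0 or below. The third libraries of clones 12 and 13 were highest on both measures for P4HA1, and the first library of clone 13 was lowest on both for SERPINH1. Replicate 3 had the highest hypoxia mean of its clone in clones 9 to 13, and replicate 2 in clones 7 and 8. Whether libraries of the same number share a cause was not tested. Without the third libraries of clones 12 and 13 the values over 18 libraries were 0.68 for P4HA1, 0.56 for SERPINH1, 0.38 for PLOD2, 0.43 for LOXL2 and -0.06 for P4HA2. They were 0.44 for PLOD1, -0.04 for LOXL1 and -0.49 for LOXL3. The value of P4HA2 thus rests on those libraries, that of PLOD2 does in part, and PLOD1 was then above PLOD2. Which members follow the list therefore depends on these libraries, apart from P4HA1 and SERPINH1, which stayed highest. The mean of the fibrillar collagen chains moved in the same libraries (r = 0.84 with P4HA1), and the part of either list in the levels of the members was not tested.

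**Figure D4:**
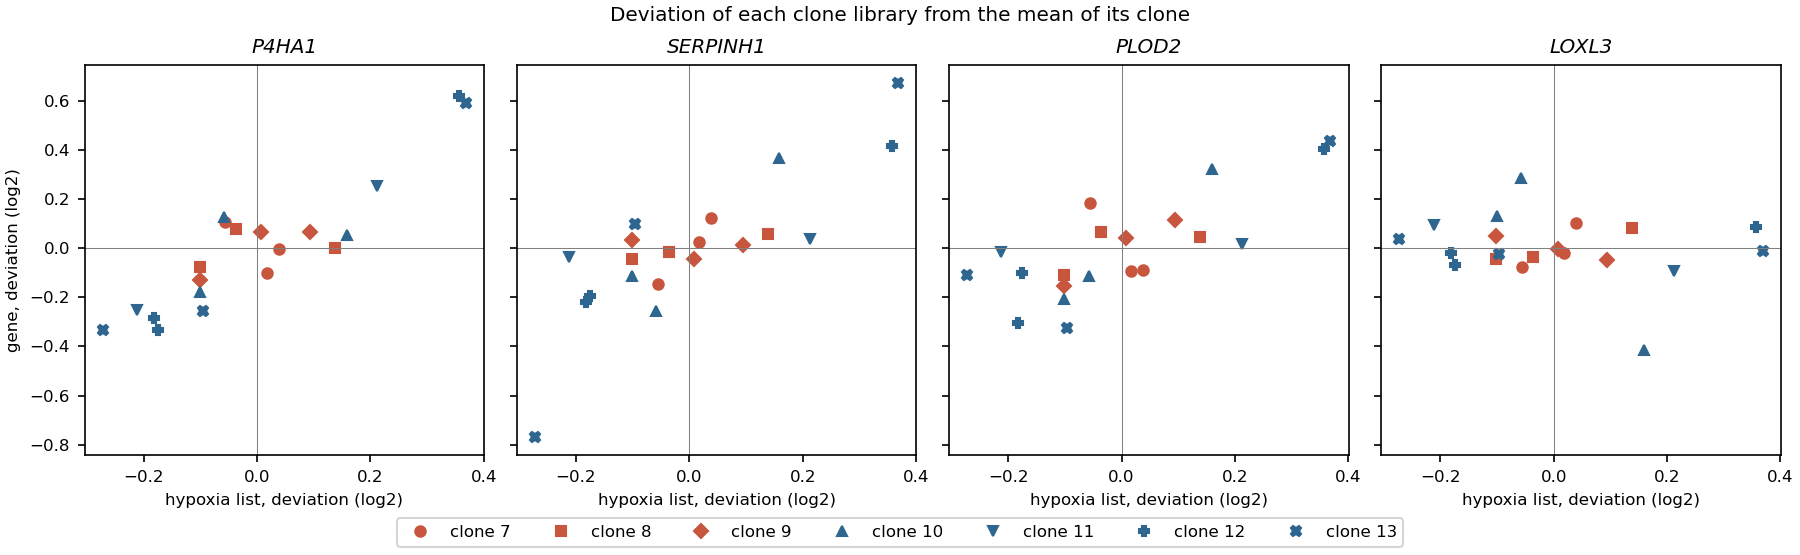
Deviation of each of the 20 clone libraries from the mean of its clone, for the mean of 12 hypoxia genes (x axis, log2) and for P4HA1, SERPINH1, PLOD2 and LOXL3 (y axis, log2), with a symbol per clone. The third libraries of clones 12 and 13 lie at the upper right for P4HA1, and LOXL3 shows no such order (r = -0.19).

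Across the 20 clone libraries, the genes with the pattern most like each member by Pearson r of log2 levels, among 11237 candidates, were as follows. LOXL1 was nearest to HTRA1, a secreted serine protease (r = 0.85), and CLTCL1 (0.81). LOXL2 was nearest to ATP13A3 (0.89) and AFF1 (0.84), and LOXL3 to PALLD, an actin-binding protein (0.93), and LSP1 (0.93). PLOD2 was nearest to RP11-366M4.11 (0.86) and SLC2A1, a glucose transporter of the hypoxia list (0.85). P4HA1 was nearest to ADAMTS9, a matrix protease (0.86), and CSNK2A2 (0.86), P4HA2 to RDH10, a retinol dehydrogenase (0.87), and PLXND1 (0.86), and SERPINH1 to TMEM57 (0.87) and UNC5B, a netrin receptor (0.86). These are the highest values of many candidates and carry no test.

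The other steps of collagen production were read from lists. Of 16 further genes for hydroxylation, glycosylation and folding, 5 rose and 1 fell (median log2 fold change 0.73). CREB3L1, a transcription factor of the endoplasmic reticulum that activates collagen genes, rose by 3.59, from 0.855, 0.259 and 0.426 TPM to clone means of 12.9 to 31.1 TPM, highest in clone 11, and as it was under 1 TPM in every untreated library it entered the test through the clones. The prolyl 3-hydroxylases P3H3 and P3H1, listed in the table under the older symbols LEPREL2 and LEPRE1, rose by 1.80 and 1.58, and COLGALT2, a collagen galactosyltransferase, fell by 1.89. Of 12 tested genes of export and propeptide processing, 7 rose and 0 fell (median 1.16): PCOLCE, an enhancer of C-propeptide cleavage, by 3.47, SPARC, a collagen-binding chaperone, by 2.64, SEC24D, a coat protein of the vesicles that export procollagen, by 2.15, and ADAMTS2, an N-propeptidase, by 2.08. ADAMTS2 was among 2 of these 7 that met the filter through the clones only, and it was not called in clones 7 (0.35) and 10 (0.16).

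Among 11 tested genes of copper supply, on which lysyl oxidases depend, and of elastic fibre assembly, 5 rose, all of them genes of matrix proteins, and 1 fell (median 0.51). Fibronectin (FN1) rose by 4.55, fibrillin (FBN1) by 4.21, EMILIN1 by 2.14 and POSTN by 1.60. FBN1, EMILIN1 and POSTN met the filter through the clones only. The value of POSTN came largely from clone 11, at 200.5 TPM (log2 fold change 7.48), with clone 7 also called (1.70) and the other 5 clones not called (0.05 to 0.83). The 1 that fell was ATOX1, a copper chaperone (log2 fold change -1.28). Of the other copper genes, ATP7A was under the fold minimum (0.39). SLC31A1 went from 23.7 TPM in untreated cells to clone means of 13.0 to 22.3 TPM. ATOX1, ATP7A and SLC31A1 were named after their values were seen. Both other cross-linking enzymes rose: the transglutaminase TGM2 by 3.75 and the peroxidase PXDN, which cross-links collagen IV, by 1.62. PXDN met the filter through the clones only, and it was not called in clones 7, 11 and 12 (0.30, 0.56 and 0.87).

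Among the substrates, of 8 tested fibrillar collagen chains 6 rose and 0 fell (median 5.05), with COL1A1 at 8.66, COL5A1 at 6.67, COL5A2 at 5.89, COL3A1 at 5.39 and COL1A2 at 4.71. Of these 6, 4 (COL1A2, COL3A1, COL5A1 and COL5A2) met the filter through the clones only, so the count and the median were in part fixed by it. Of the 12 hypoxia genes 5 rose and 1 fell (median 0.85), with ADM at 4.18, NDRG1 at 2.77 and BNIP3 at 1.38 higher and the hydroxylase EGLN3, which marks hypoxia-inducible factors for degradation, at -1.39. The same shares over all genes tested were 10.9% higher and 7.91% lower. The lineage factors MITF (-1.95) and SOX10 (-7.25) fell in the same libraries.

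**Figure D5:**
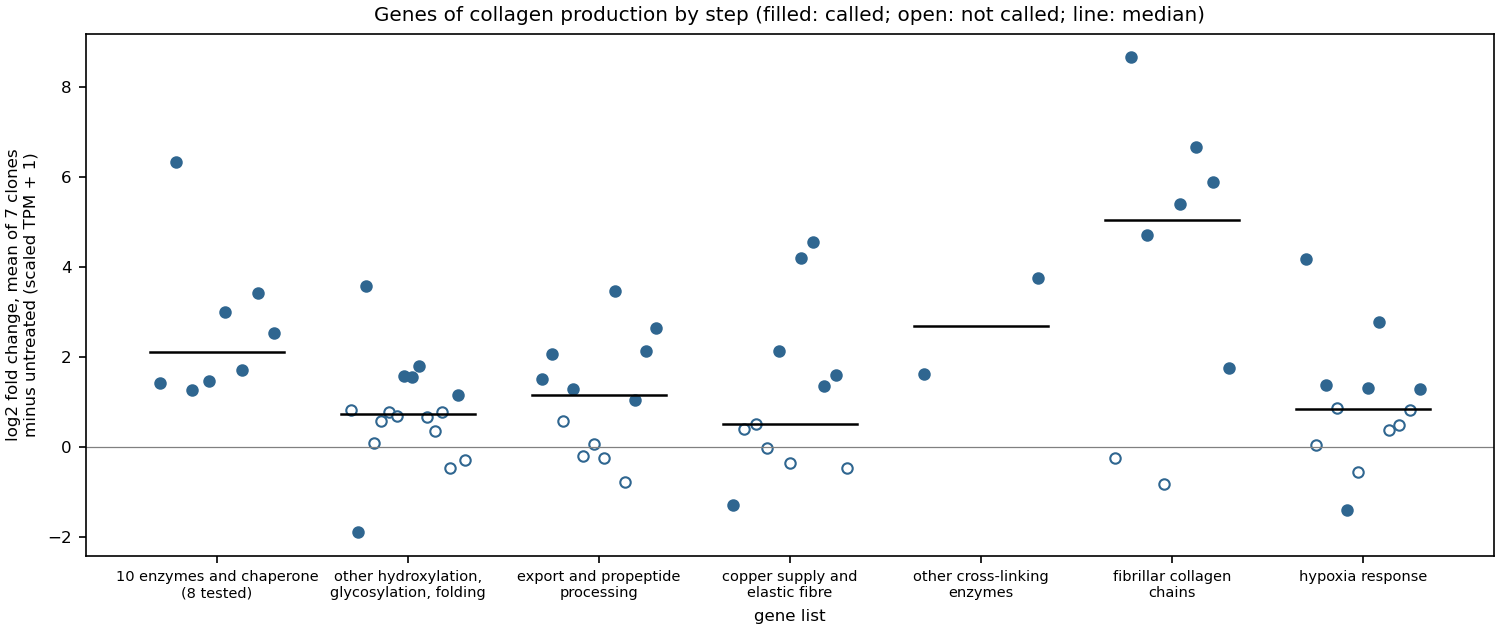
log2 fold change between the mean of 7 clones and untreated cells (y axis, log2 of scaled TPM + 1) for the tested genes of each list (x axis), with filled points for called genes, open points for the others and a line at the median. The medians run from 0.51 in copper supply and elastic fibre genes to 5.05 in fibrillar collagen chains, with the 8 tested members at 2.12.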

How the data were processed

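RNA sequencing of 23 libraries was deposited by the authors as 1 table of TPM, each column summing to 1000000. Per the submitters' processing notes kallisto and hg19 were used. For the annotation, the summing to genes and any filter, the sources used here give nothing. Since depth is lost in TPM, no counting error could be set and the spread between libraries is the only error.

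From the deposited TPM, scaling factors between libraries were computed here by a trimmed mean of log ratios (30% of ratios and 5% of levels trimmed on each side, 10822 genes with at least 1 TPM in every library), and ranged from 0.743 to 1.14. Genes with at least 1 TPM in at least 2 libraries (15657) were tested as log2(scaled TPM + 1), with fold changes on that scale, which understates changes of low genes. limma 3.58.1 in R 4.3.3 fitted 8 groups over all 23 libraries (eBayes with trend), with Benjamini-Hochberg adjustment over all genes tested. A call required an adjusted p under 0.05 and a log2 difference of at least 1. Scripts were tested on simulated data.

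Named genes were the members, up to 4 called genes with the largest fold change per list, the 2 nearest patterns per member that differed among clones, and COL1A1, COL1A2, COL3A1, MITF and SOX10. Members and lists were chosen with earlier results of these data known. Other scaling, pseudocounts, filters, single libraries or clones left out and a replicate block were tried as alternatives.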

Additional observations from a re-analysis of the deposited data

Results flagged for a closer look

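Among the members called as differing between clones, the widest pair of clones is given for each, chosen as the widest of 21 pairs, on the log2 scale with limma's Benjamini-Hochberg adjusted p. LOXL1 was lower in clone 7 than in clone 13 (-3.03, adjusted p = 3.61e-08), where clone 7 held 0 to 0.367 TPM. LOXL2 was lower in clone 8 than in clone 11 (-2.11, adjusted p = 5.19e-05), with the 2 libraries of clone 11 above the other 18 clone libraries. P4HA1 was lower in clone 8 than in clone 9 (-1.81, adjusted p = 1.31e-05), both of them vemurafenib clones. SERPINH1 was lower in clone 7 than in clone 9 (-1.27, adjusted p = 0.00115), again within 1 arm. LOXL3 was lower in clone 7 than in clone 11 (-1.25, adjusted p = 3.41e-06), PLOD2 was lower in clone 8 than in clone 11 (-1.14, adjusted p = 0.000669), and P4HA2 was lower in clone 7 than in clone 11 (-1.02, adjusted p = 1.59e-05). Groups of 2 or 3 libraries are too small to flag a single library as standing apart.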

How the results depend on the processing

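The count of members called higher in the mean of the clones was 8 in every alternative tried, and that of arm differences 0. The 7 members differing among clones became 4 without the libraries of clone 7 and 4 without those of clone 11, where clone 7 had the lowest mean of 4 members and clone 11 the highest of 5, against 6 without clone 8 and 7 without any of the others, and 6 to 7 with single libraries left out (P4HA2 had a range of 0.96 without clone 7 replicate 3 and 0.93 without clone 11 replicate 2). Single libraries left out gave 7 to 8 members in clone 9 and 27 to 33 called combinations of member and pair, against 30. Those combinations came to 41 with the values as deposited. The difference of SERPINH1 between arms turned to 0.15 without clone 7 and was called in neither case, and its cause was not tested. Leaving out the third libraries of clones 12 and 13, an alternative chosen after seeing the data, left 7 members differing among clones and 30 combinations. With the replicate number as a block (replicate block) the counts were 8 in the mean of the clones, 7 differing among clones and 29 combinations, and no block could be fitted to the arms, which are compared over clone means. Whether the numbers pair the libraries was not settled. Deviations were correlated above 0.1 in 28 of 77 same-numbered pairs and in 47 of 154 differently numbered pairs. Of the 23 libraries, 12 matched best with their own number. Depth is unknown, so levels near 0 (LOX, LOXL4, LOXL1) cannot be told from absence.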

Other observations

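Some genes outside the members varied widely between clones. TGM2, a transglutaminase that cross-links matrix proteins, was at 2.95, 3.17 and 3.04 TPM in untreated libraries and had clone means from 18.1 ± 2.11 TPM (SD, n = 3) in clone 7 to 263 ± 26.5 TPM (SD, n = 3) in clone 9. PCOLCE, which enhances procollagen cleavage, was at 27, 27.9 and 23.9 TPM in untreated libraries and had clone means from 128 ± 27.8 TPM (SD, n = 3) in clone 8 to 879 ± 135 TPM (SD, n = 3) in clone 9. Clone 9 thus held the highest mean of both genes and of P4HA1 and SERPINH1, whereas clone 11 held the highest mean of LOXL2, LOXL3, PLOD1, PLOD2 and P4HA2. No test of the differences of these 2 genes between clones is given.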
